A study of Mus musculus with 4 samples.

Results

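Of the 25446 replicated H3K4me3 peaks of mouse left cerebral cortex, 932 (3.66%) lay at the start of a long noncoding RNA (lncRNA) gene and at no protein-coding start. They were chosen by position alone. A member shared 1 base or more with the 1000 bases before or after some transcript start of a lincRNA, antisense or processed_transcript gene, and none with the same stretch around a start of any protein-coding gene. Genes and biotypes were those of the GENCODE M21 annotation of mm10. By the gene whose start lay nearest the summit, 552 members belonged to lincRNA genes (intergenic), 219 to antisense genes and 161 to processed_transcript genes. A further 1705 peaks at lncRNA starts also met a protein-coding window and were left out.

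The cortex came from adult female B6CASTF1/J mice, F1 hybrids of C57BL/6J with CAST/EiJ, at 2 months of age, and the mark was mapped by ChIP-seq, the sequencing of DNA bound to immunoprecipitated histones. Pool I (biological replicate 2) and pool J (biological replicate 1) gave 2 technical replicate libraries each, 4 in all, and each pool combined 4 cortex biosamples, with no treatment named and no allele-specific values in the lists used here. All libraries carried the same donor record, so it is not known that the pools came from separate animals, and the spread between them may be technical. Both libraries of a pool entered 1 list of peaks, whose read depth was unknown.

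H3K4me3 is laid down around transcription starts by the SET1 and MLL enzyme complexes, which are drawn to unmethylated CpG-rich DNA, and it is found at active and poised promoters. Genes of lncRNAs are transcribed by RNA polymerase II like protein-coding genes, from promoters that are often poor in CpG dinucleotides. In the brain several such genes are precursors of neuronal microRNAs (miRNAs), which silence messenger RNAs through base pairing with a short seed, while others act on neighbouring genes or on a whole chromosome, as Xist does on the inactive X.

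Promoter sequences of 4 members are shown because they span the range of CpG content that the results below turn on. Each runs from 250 bases before to 50 after the start nearest the summit, on the strand of the gene, 5′ to 3′, read from the GRCm38.p6 assembly (mm10). Capitals mark the CpG dinucleotides. The first is the promoter of C130071C03Rik, under the widest peak (chr13:83721131-83721430, plus strand, 12 CpG). The second is that of 6720427I07Rik, the member of highest enrichment (chr13:48546451-48546750, minus strand, 40 CpG). The other 2 are the promoters with the lowest and the highest CpG ratio at the summit among members above the upper quartile of enrichment, Gm15894 (chr8:110754742-110755041, plus strand, 2 CpG) and 6530409C15Rik (chr6:28215326-28215625, plus strand, 57 CpG).
C130071C03Rik: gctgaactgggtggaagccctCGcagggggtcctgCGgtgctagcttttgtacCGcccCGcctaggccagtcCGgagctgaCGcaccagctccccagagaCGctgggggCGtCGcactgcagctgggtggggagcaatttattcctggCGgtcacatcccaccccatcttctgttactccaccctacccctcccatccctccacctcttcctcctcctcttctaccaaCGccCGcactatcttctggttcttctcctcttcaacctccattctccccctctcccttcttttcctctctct
6720427I07Rik: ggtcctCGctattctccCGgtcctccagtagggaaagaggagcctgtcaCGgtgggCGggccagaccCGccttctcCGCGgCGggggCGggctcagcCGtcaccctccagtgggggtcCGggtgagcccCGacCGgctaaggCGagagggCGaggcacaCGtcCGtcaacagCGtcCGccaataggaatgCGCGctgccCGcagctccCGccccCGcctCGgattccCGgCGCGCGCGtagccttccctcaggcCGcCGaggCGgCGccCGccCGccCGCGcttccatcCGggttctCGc
Gm15894: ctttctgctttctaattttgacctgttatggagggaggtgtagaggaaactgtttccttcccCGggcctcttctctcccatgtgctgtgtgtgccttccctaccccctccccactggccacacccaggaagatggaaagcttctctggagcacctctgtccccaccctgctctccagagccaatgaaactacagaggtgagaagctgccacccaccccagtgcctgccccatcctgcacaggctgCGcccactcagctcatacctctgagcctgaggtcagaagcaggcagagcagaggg
6530409C15Rik: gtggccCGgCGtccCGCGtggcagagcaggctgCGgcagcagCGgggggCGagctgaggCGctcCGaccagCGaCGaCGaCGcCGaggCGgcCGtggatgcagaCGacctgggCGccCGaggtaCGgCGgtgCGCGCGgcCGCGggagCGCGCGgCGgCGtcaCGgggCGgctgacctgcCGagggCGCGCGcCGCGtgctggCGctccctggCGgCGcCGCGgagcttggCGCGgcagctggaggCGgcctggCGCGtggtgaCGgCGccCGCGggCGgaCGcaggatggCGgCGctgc

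Mature miRNAs encoded under some of the widest members are shown next, from RefSeq on GRCm38.p6, with the seed (bases 2 to 8) in capitals. miR-9-5p and miR-9-3p are the products of Mir9-1, Mir9-2 and Mir9-3, whose hairpins lay inside member peaks of Gm3764, C130071C03Rik and Mir9-3hg, so those 3 loci share the seeds CUUUGGU and UAAAGCU. miR-125b-5p comes from Mir125b-1 (under the peak of 3110039I08Rik) and miR-137-3p from Mir137 (under a peak of Gm26871).
miR-9-5p: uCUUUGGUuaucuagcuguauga
miR-9-3p: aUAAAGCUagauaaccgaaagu
miR-125b-5p: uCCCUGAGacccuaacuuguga
miR-137-3p: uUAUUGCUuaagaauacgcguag

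Member peaks were narrower and weaker than peaks at protein-coding starts, though a few were among the widest of the tissue. Their median width was 837.5 bases (quartiles 449 and 1445.5, range 188 to 26825), against 1744 bases for the 16121 peaks at coding starts and 1199 bases for all replicated peaks. The 7982 peaks at no annotated start were narrower still, at 496 bases. The authors' enrichment of a peak, taken here as fold over a control, had a median of 5.89 in members, 18.4 at coding starts, 11.1 over all peaks and 3.87 away from starts. Among members the processed_transcript genes had the widest and most enriched peaks (medians 1102 bases and 8.15), ahead of lincRNA genes (824 bases and 6.03) and antisense genes (739 bases and 4.66). Peaks of 1 list are not replicates, so these medians carry no test. Peaks at lncRNA starts that also met a coding window had medians of 2033 bases and 19.6, close to those at coding starts in general.

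**Figure D1:**
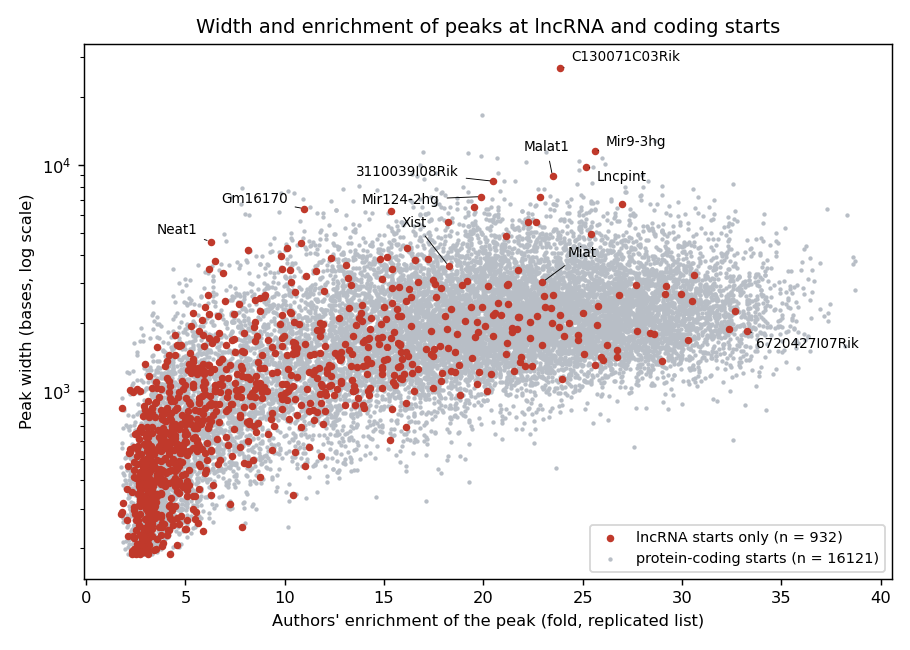
Peak width in bases (log scale) against the authors' enrichment for the 932 peaks at lncRNA starts only and the 16121 at protein-coding starts, each point 1 peak of the replicated list. Members crowd at the lower left, and a few, led by C130071C03Rik with 26825 bases, stand at the top.

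Members were nearer in width to coding-start peaks of similar enrichment, though somewhat narrower in deciles 2 to 9 of enrichment. In the lowest decile of enrichment of the whole list, the 118 members had a median of 365 bases and the coding peaks 345.5 bases. In the fifth decile members had 1086 bases and coding peaks 1155, and in the highest decile 2377 bases in 16 members against 2261.5 bases in coding peaks. The gap was wider in the sixth decile, where 117 members had 1299 bases and coding peaks 1627. It was also wide in the seventh, with 1589 bases in 58 members against 1893 in coding peaks. Members were unevenly spread over the deciles, with 669 of them in the lower 5. At a −log10 q of at least 10 there were 582 members (62.4%), against 71.4% of all peaks, and 13 members (1.39%) had a q above 0.05, against 1.42% of all peaks.

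The widest peak of the whole replicated list was a member. It lay over C130071C03Rik, a lincRNA gene that hosts Mir9-2, at chr13:83715025-83741849, and spanned 26825 bases with an enrichment of 23.9. Its width was 27204 bases in pool I and 23485 bases in pool J, and the widest coding-start peak spanned 16583 bases. The nearest coding start, of the neuronal transcription factor gene Mef2c, was 69.1 kb from its summit. The second widest member, at chr7:79498734-79510213, covered the start of Mir9-3hg, the host of Mir9-3. It spanned 11480 bases, with 11499 in pool I and 11429 in pool J, so the pools differed little there.

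Lncpint, a p53-induced lincRNA, had a peak of 9819 bases with an enrichment of 25.2, and of 10344 bases in pool I and 9630 in pool J. Malat1, an abundant RNA of nuclear speckles, had 8913 bases (8929 in pool I and 8772 in pool J). The peak of 3110039I08Rik, over Mir125b-1, had 8474 bases (8554 in pool I and 7069 in pool J). Hosts of miR-124, an abundant miRNA of neurons, followed. Mir124-2hg had 7242 bases (7791 in pool I and 7242 in pool J) and Mir124a-1hg 7192 bases (7203 in pool I and 7023 in pool J). The last 3 of the 10 widest were 1810026B05Rik (6685 bases), Gm3764 (6496 bases, beside Mir9-1) and Gm16170 (6404 bases). For 1810026B05Rik the pools were far apart, with 6747 bases in pool I and 3611 in pool J, while the other 9 differed by less than 1.5 times.

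Of the 10 most enriched members none was among the 10 widest. 6720427I07Rik led with 33.3 at chr13:48544754-48546585 (1832 bases, with 1786 in pool I and 1850 in pool J). Spata5l1 followed with 32.7 and C030034I22Rik with 32.4. The peak shared by Gm16897 and A330023F24Rik, a host gene of miR-29 family members, reached 30.6 over 3247 bases. Gm44066 (30.5), Snhg7os (30.3), Gm11205 (30.0), 2410006H16Rik (29.2), 1700020I14Rik (29.2) and 1810058I24Rik (29.0) completed the set. Their widths lay between 1352 and 3247 bases. The CpG ratio around their summits was between 0.672 and 0.926, well above the median of members. RefSeq, unlike GENCODE M21, classes Spata5l1 and 1810058I24Rik as protein-coding genes. Over all members 27 had a gene of that RefSeq type, and 86 (9.23%) met a window of a RefSeq mRNA start, with medians of 1039 bases and 8.33.

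Members that held a miRNA hairpin were wide as a group, which was noticed after the values were seen. A wider peak has more room to hold a hairpin, so a choice by hairpin favours wide peaks by construction. Hairpins of the RefSeq table lay inside 14 members (1.5%), against 0.452% of all peaks, 0.509% of coding-start peaks and 4.62% of the 411 peaks at starts of other biotypes alone. The start of an annotated miRNA gene counts among those other biotypes, so peaks at no annotated start can hardly hold a hairpin (0 of 7982 did). That raises the share of the 411 and leaves the share over all peaks as it is. Hairpins of miR-124 are not part of this count, and neither are its hosts. Their median width was 2814.5 bases and their median enrichment 17.5, and each of the 14 was met in both pools. Besides the miR-9 and miR-125b hosts they included the peak of 1700016P03Rik over Mir132 and Mir212, a pair induced by neuronal activity, with 2984 bases (2964 in pool I and 3088 in pool J) and an enrichment of 17.6. The peak of Gm26871 over Mir137 spanned 4292 bases and reached 16.1. It met a pool I peak of 6949 bases and a pool J peak of 4297. A peak of Mir670hg over Mir129-2 spanned 3414 bases (21.7), and that of AC026385.1 over Mir7b spanned 2008 bases (22.3). The narrowest were those of Gm37233 over Mir5103 (966 bases) and of Sox2ot over Mir1897 (1080 bases).

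Members were poorer in CpG than coding-start peaks, and those with more CpG were wider and more enriched. In 1001 bases centred on the summit the median observed-to-expected CpG ratio was 0.454 in members, 0.706 at coding starts, 0.587 over all peaks and 0.374 away from starts. GC content had a median of 51.7% in members, 59.8% at coding starts, 55.8% over all peaks and 48.3% away from starts. A ratio of at least 0.6 was found in 248 members (26.6%), against 68.2% of coding-start peaks. Those 248 had a median of 1459.5 bases and an enrichment of 13.6, against 549 bases and 3.85 in the 293 members with a ratio between 0.2 and 0.4. Within bins of the CpG ratio members were less enriched than coding-start peaks in 3 of 4 bins. At 0.6 or above coding-start peaks had 1964 bases and 21.3, and between 0.4 and 0.6 members had 863 bases and 6.22 against 1327.5 bases and 13.2. Below 0.2 the 65 members had 533 bases and 3.95, against 576 bases and 3.65 in coding-start peaks.

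The sequences above give examples at both ends of the CpG range. Gm15894 and 6530409C15Rik were picked from members above the upper quartile of enrichment. Their enrichment is thus high by choice and is no evidence for or against the relation. Gm15894 held 2 CpG in its 300 bases and had a ratio of 0.144 around the summit. Its peak spanned 3019 bases with an enrichment of 16.7 (3660 bases in pool I and 2845 in pool J). Malat1, with a ratio of 0.240, was among the 10 widest members. 6530409C15Rik, with 57 CpG and a ratio of 1.12, had 1290 bases and 12.3 (1339 bases in each pool), near the medians of members with a ratio of at least 0.6.

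Few lncRNA genes carried the mark away from coding starts. A member peak was found at 858 of 9603 genes of the 3 biotypes (8.93%). Any peak, those shared with a coding start included, was found at 2354 of them (24.5%), against 14293 of 21938 protein-coding genes (65.2%). The share was 8.92% for lincRNA genes (95% Wilson interval 8.21 to 9.67), 6.69% for antisense genes (5.85 to 7.65) and 17.5% for processed_transcript genes (14.98 to 20.3). These shares leave out genes near coding starts whose peak also met a coding window. Counting any peak, they were 15.1% for lincRNA, 35.1% for antisense and 54.2% for processed_transcript genes. Among genes with no coding start within 2000 bases they were 9.74% of 5367 lincRNA genes, 9.38% of 1653 antisense genes and 29.0% of 414 processed_transcript genes, so lincRNA and antisense genes were then close. The intervals cover counting error only. Most of these genes had 1 member peak, and 103 had more. Mir99ahg, host of miR-99a, let-7c and miR-125b-2, and Sox2ot, which spans the stem cell factor gene Sox2, had 6 each, and each of the 12 was met in both pools. Those of Mir99ahg were 396 to 4285 bases wide and those of Sox2ot 516 to 2213 bases.

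The difference in marked share remained among starts of like CpG content. For this count 7434 lncRNA genes with no coding start within 2000 bases were taken by their 5′-most start, and 10.4% of those starts were marked, against 61.6% of coding genes. Coding genes were not filtered by their neighbours, so some may count as marked through a peak of a nearby gene. The 2 sets are thus alike in CpG ratio only. The CpG ratio of the 7434 was low, with 86.0% of them in the lower 5 deciles of the ratio over both kinds of gene, against 39.2% of coding genes. Marked lncRNA starts had a median ratio of 0.440 and unmarked ones 0.201, against 0.725 for marked and 0.177 for unmarked coding starts. The marked share of lncRNA starts was 0.811% in decile 1, 12.6% in decile 5, 30.2% in decile 6, 60.4% in decile 7 and 85.0% in decile 10, where there were 40 of them. Coding starts had 1.86%, 37.4%, 73.3%, 92.8% and 98.7% in those deciles. The Wilson intervals of the 2 classes overlapped in decile 1 alone. They cover counting error only, and their overlap or lack of it is no test.

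**Figure D2:**
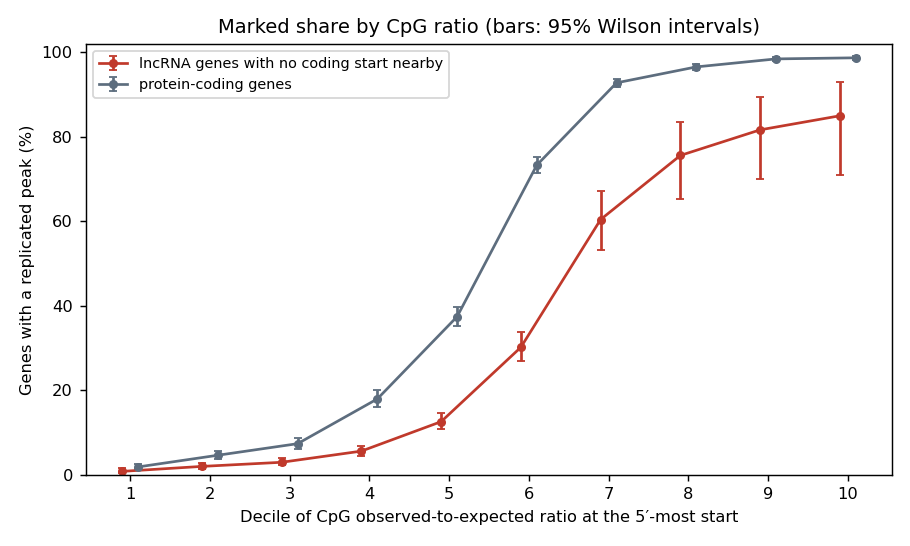
Share of genes with a replicated peak (%) by decile of the CpG observed-to-expected ratio at the 5′-most start, for 7434 lncRNA genes with no coding start within 2000 bases and 21938 protein-coding genes, with 95% Wilson intervals as bars. Both curves climb with the ratio, and the lncRNA curve lies below the coding one in each decile, with overlapping bars in decile 1.

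Short motifs of promoter-binding factors were searched on both strands of the 300-base promoters, with overlaps between motifs allowed. The promoter of a member was that of the start nearest its summit, so peaks with the same nearest start repeated a promoter. Promoters of the other sets were taken at the most upstream start of each gene. Only members were thus placed by their peak, and the effect of this on the shares below was not tested. The GC box GGGCGG was in 29.9% of members, against 34.9% of all 31541 lncRNA and coding promoters, 62.7% of marked coding promoters and 6.63% of unmarked lncRNA promoters away from coding starts. The ETS core CCGGAAG was in 7.19% of members, 8.82% of all, 15.9% of marked coding and 2.61% of unmarked lncRNA promoters. The values in parentheses below keep that order of the last 3 sets. The NRF1 core TGCGCA was in 7.83% (8.02%, 13.6% and 2.61%) and the CRE core TGACGT in 7.83% (7.59%, 11.6% and 3.92%). For these 4 motifs, each of which holds CpG, members lay between marked coding and unmarked lncRNA promoters. Of the motifs without CpG, CCAAT was in 36.2% of members (38.9%, 38.2% and 40.8%), TATAAA in 11.7% (12.9%, 7.03% and 15.9%), TGANTCA of AP-1 in 7.62% (7.56%, 4.43% and 10.2%) and CCATNTTG of YY1 in 3.97% (4.98%, 5.46% and 5.37%). A match describes these letters alone and is no evidence of binding. Among the 4 promoters shown, those of C130071C03Rik, 6720427I07Rik and 6530409C15Rik held a GC box, and those of 6720427I07Rik and Gm15894 a CCAAT.

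Member peaks lay around the start and, by the median over all of them, reached further into the gene than upstream. They covered the start nearest the summit in 587 cases (63.0%), against 86.2% of coding-start peaks. Coding-start peaks were wider (median 1744 bases against 837.5), and these shares were not matched for width. Members that covered their start had medians of 1129 bases and 8.84, and the 345 that did not had 454 bases and 3.82. The summit was downstream of the start in 65.7% of members and 78.3% of coding-start peaks. The peak extended a median of 582.5 bases downstream and 411 upstream in members, against 1091 downstream and 618 upstream at coding starts. Members outside coding gene bodies had 627 downstream and 411 upstream. The lean was absent in the 182 inside a coding gene on the opposite strand (404.5 downstream and 413.5 upstream). It was reversed in the 71 in a domain with a coding-start peak, described below (−187 downstream and 725 upstream). The position 500 bases downstream was covered by 46.5% of members and 80.8% of coding-start peaks, and that 500 bases upstream by 36.2% of members and 60.6% of coding-start peaks.

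**Figure D3:**
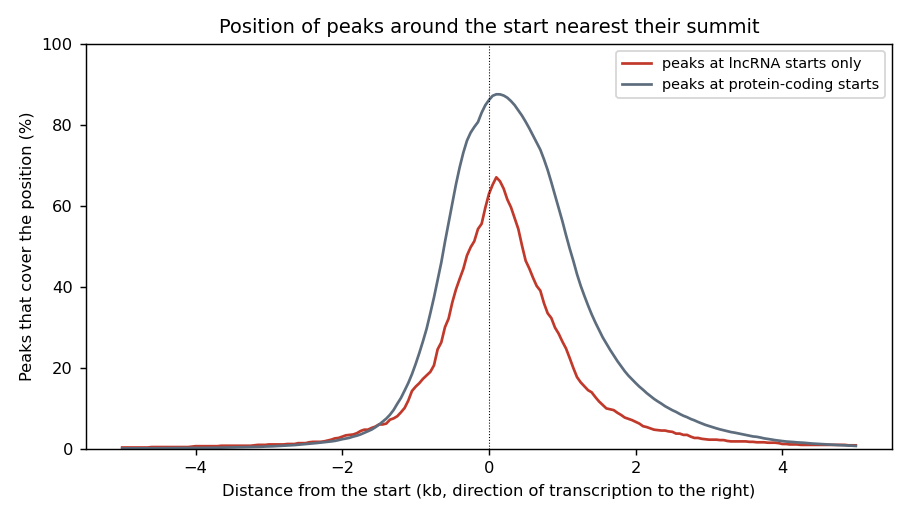
Share of peaks (%) that cover each position from 5 kb upstream to 5 kb downstream of the start nearest the summit, for 932 members and 16121 coding-start peaks. Both profiles have their maximum just downstream of the start, and that of members is lower near the start. At both ends that of members is slightly higher, with 0.322% against 0.0868% at 5 kb upstream and 0.858% against 0.713% at 5 kb downstream. Few members reach that far, and at 4000 bases downstream the profile of members is still the lower (1.18% against 1.90%).

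Most member summits lay outside protein-coding gene bodies, which the choice of members favours. They numbered 729 (78.2%), with 182 (19.5%) inside a coding gene body on the opposite strand and 21 on the same strand. Of the lincRNA members, intergenic by biotype, 514 of 552 lay outside, against 82 of 219 antisense members. Shares over all peaks were not computed for these positions, nor for the distances and directions below. Of the 219 antisense members 136 lay inside a coding gene on the opposite strand. Those 182 opposite-strand peaks had medians of 739.5 bases and 4.56, against 878 bases and 6.20 outside gene bodies. A coding start lay within 10 kb of 283 members (30.4%) and at 50 kb or more from 325 (34.9%), with a median width of 781 bases in the near set and 816 in the far set. The nearest coding gene was transcribed away from the lncRNA gene in 287 cases (30.8%). With peaks up to 1000 bases apart joined, 71 members fell in a domain with a coding-start peak, and these were narrow and weak (549 bases and 3.92). At the border of the rule, 12 members less than 100 bases from a coding window had medians of 475.5 bases and 5.28, and the 8 lncRNA-start peaks that met one by 100 bases or less had 569.5 bases and 5.58.

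The most isolated member was the peak of C130073E24Rik at chr8:50915009-50917337, whose summit lay 2072 kb from the nearest coding start, that of Tenm3. It spanned 2329 bases with an enrichment of 13.2 and was alike in the pools, with 2326 bases in pool I and 2383 in pool J. Gm13470 followed at 1327 kb from Zeb2, with a peak of 398 bases. Next were 3 peaks of A230006K03Rik, at 1034.6 to 1036.5 kb from Ndn. They spanned 353 to 1764 bases, and 1 of them had no pool J peak.

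Recovery in the single-pool lists was lower for members than for coding-start peaks. A pool I peak met 817 members (87.7%, Wilson interval 85.4 to 89.6), against 90.7% of all peaks and 96.9% at coding starts. A pool J peak met 725 members (77.8%, 75.0 to 80.3), against 82.5% of all peaks and 94.1% at coding starts. Both pools met 695 (74.6%, against 80.1%), pool I alone 122 (13.1%, against 10.6%), pool J alone 30 (3.22%, against 2.41%) and neither 85 (9.12%, against 6.88%). Members met in both pools had medians of 1086 bases and 8.49. Those met in pool I alone had 377 bases and 3.23, those in pool J alone 323 bases and 3.34, and those in neither 277 bases and 2.86. The 85 met by neither were weak throughout, the most enriched being Gm43568 and 1700012C14Rik at 3.82 each. At like enrichment the gap to coding-start peaks was smaller. In decile 3 pool J met 76.5% of members and 75.0% of coding peaks, and from decile 4 on each pool met at least 97.4% of both, though in decile 2 pool J met 34.7% of members and 48.4% of coding peaks. The rule applied to the pool lists themselves found 863 members in pool I and 744 in pool J, a mean of 803.5 ± 84.1 (SD, n = 2 pools). Their median width was 962 bases in pool I and 972 in pool J, a mean of 967 ± 7.07 (SD, n = 2 pools). With 1 list per pool no test between the pools was possible.

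Where both pools met a member, its width was close in most cases and far apart in a few. The pool I width was divided by the pool J width, and this quotient had a median of 1.07, as it did over all peaks. The pool I peak was at least 1.5 times wider for 92 of 695 members (13.2%), against 8.77% of all peaks, and the pool J peak for 20 (2.88%), against 3.47%. Some of these pairs set 1 pool peak against several replicated peaks. Such a joined pool I peak was met by 23 of the 92, against 30 of the 695, and a joined pool J peak by 7 of the 20. Among the 655 members without joining, pool I was the wider by that much in 10.5% and pool J in 1.98%. Of the 5 pairs with the largest and the 5 with the smallest ratio, 9 were joined, 4 of them with a coding-start peak. At 0610043K17Rik the pool I peak had 4319 bases and the pool J peak 354, while the replicated peak had 343. At Gm9934, 2.27 kb from the start of Fam181b, the pool I peak had 3206 bases and the pool J peak 350. At A830035O19Rik, inside Sidt2, the pool I peak had 330 bases and the pool J peak 2781. The exception was Gm10421, with 348 bases in pool I and 963 in pool J. Gm26652 on the X chromosome, with 4328 bases in pool I and 1537 in pool J, also differed without joining, and was singled out after its values were seen.

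**Figure D4:**
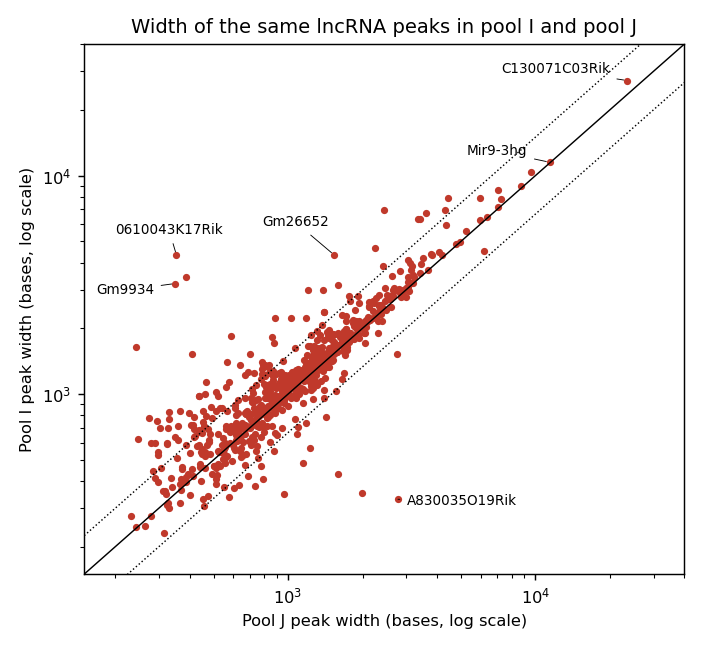
Width of the widest pool I peak against that of the widest pool J peak (bases, both log scales) for the 695 members met in both pools, with the line of equality solid and ratios of 1.5 dotted. Most points lie near equality, and 92 lie above the upper dotted line against 20 below the lower one.

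The labelled tissue was checked on protein-coding markers, of which 22 of 29 carried a peak (75.9%, against 65.2% of all coding genes). They included each of the 3 neuronal, 5 cortical excitatory, 3 inhibitory, 3 astrocyte and 3 endothelial genes, 2 of 3 oligodendrocyte, 2 of 3 choroid plexus and 1 of 3 microglial genes, and none of the 3 blood genes. The total of 22 is not far above the share over all coding genes, so it is a weak check of the tissue. In bulk tissue, fewer cells with a mark and less mark per cell cannot be told apart. Among 15 lncRNA genes of the trunk Hox clusters and of other tissues, such as Hotair, Hottip, Wt1os and Evx1os, none had a member peak, 4 shared a peak with a coding start and 11 had none. Over all lncRNA genes 8.93% had a member peak and 24.5% any peak, so this count is near the share over all genes.

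The X inactivation list was marked in full. Each of its 7 genes had a member peak, against 8.93% of lncRNA genes overall and 24.5% with any peak. This list and those that follow were chosen with earlier results of these data known. Their counts beside these shares are descriptions and no independent evidence. Jpx, an activator of Xist, had the highest enrichment of members on the X at 20.9 (2159 bases, with 2154 in pool I and 2397 in pool J). Xist, the RNA that coats the inactive X, had 18.3 at chrX:103480620-103484179 (3560 bases, with 3584 in pool I and 3403 in pool J). Its antisense partner Tsix had 8.77 and 1086 bases, with 1075 in pool I and 1062 in pool J. Ftx had peaks of 20.1 and 16.1. Firre, which anchors the inactive X near the nucleolus, had 16.3, 4933407K13Rik had 15.5 and 5530601H04Rik 14.01. Members on the X numbered 37 (3.97%, against 3.10% of all peaks) and had medians of 1247 bases and 8.48, against 836 bases and 5.84 elsewhere. Others among the most enriched there were 9530027J09Rik (16.7) and C230004F18Rik, 69.0 kb from Cdr1, with 12.3 and 3854 bases.

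Imprinted lncRNA genes were marked in part. Of 10 measured genes 4 had a member peak (against 8.93% of lncRNA genes), 1 shared a peak with a coding start and 5 had none, so 5 had any peak (against 24.5%). Meg3, expressed from the maternal chromosome, had a peak of 3022 bases and 10.3 (3062 bases in pool I and 3006 in pool J). Rian and Mirg, which lie downstream in the same maternal cluster, had none. Kcnq1ot1, a paternally expressed silencer of its neighbours, had 2945 bases and 13.4 (2995 in pool I and 2918 in pool J). Airn, which silences Igf2r, had 1750 bases and 9.98 (1781 in pool I and 1651 in pool J), and Nespas, antisense in the Gnas locus, 983 bases and 4.16. H19, Snhg14 and Nctc1 were without a peak. The widths of the 4 marked genes were alike in the pools.

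Host genes of small RNAs divided between both kinds of promoter. Of 14 snoRNA host genes 7 had a member peak (against 8.93% of lncRNA genes) and 7 shared one with a coding start, so each had a peak (against 24.5%), Gas5 and Zfas1 among the second. The 7 members were Snhg8 (27.7), Snhg20 (26.7), Snhg17 (26.2), Snhg5 (23.5), Snhg12 (23.5), Snhg6 (18.4) and Snhg15 (15.8), with widths of 1403 to 2925 bases. The lowest of these was above the upper quartile of members, 12.02. Of 12 miRNA host genes 9 had a member peak (against 8.93%), 1 shared one and 2, Mir142hg of blood cells and Dnm3os, had none. Mir17hg, host of the miR-17 to miR-92a cluster, had 833 bases and 15.4, and Mir155hg, known from immune cells, 1005 bases and 8.83.

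Broadly expressed lncRNA genes had member peaks in 8 of 9 cases (against 8.93% of lncRNA genes), and the ninth, Tug1, shared a peak with a coding start. Neat1, the scaffold of paraspeckles, had 4579 bases at an enrichment of 6.26 (4484 bases in pool I and 4091 in pool J), a wide but weak peak. Pvt1, a neighbour of Myc, had 2071 bases and 15.1 (2068 in pool I and 1368 in pool J). Dleu2, host of miR-15a and miR-16-1, had peaks of 26.8 and 15.4, and Trp53cor1, induced by p53, one of 1022 bases and 4.87. 2900097C17Rik had 789 bases and 5.89.

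Of 19 lncRNA genes of brain development 10 had a member peak (against 8.93% of lncRNA genes), 5 shared one (24.5% of lncRNA genes had any peak) and 4 had none, Six3os1, Otx2os1, Lhx1os and 9630013A20Rik. Miat, highly expressed in neurons, was the most enriched at 23.0 with 3028 bases (3069 in pool I and 2669 in pool J). A830082K12Rik had 3830 bases and 17.2 (3838 in pool I and 3171 in pool J). Rmst, a partner of SOX2 in neurogenesis, had 2223 bases and 10.3, with 2240 bases in pool I and 1186 in pool J, so its width differed between the pools. Pantr2, beside Pou3f3, had a like gap, with 3144 bases and 13.2 (3146 in pool I and 1585 in pool J). Pantr1 had 694 bases and was met in pool I alone. Dlx6os1 had 1601 bases and 4.77 and Dlx1as, antisense to Dlx1, 399 bases and 3.61, both below the median enrichment of members, and that peak of Dlx1as was met in pool I alone. Nkx2-2os (1139 bases, 6.86) and Zfhx2os (1704 bases, 6.20) lay just above the median enrichment of members, and the widest peak of Sox2ot (2213 bases, 5.38) just below it.

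**Figure D5:**
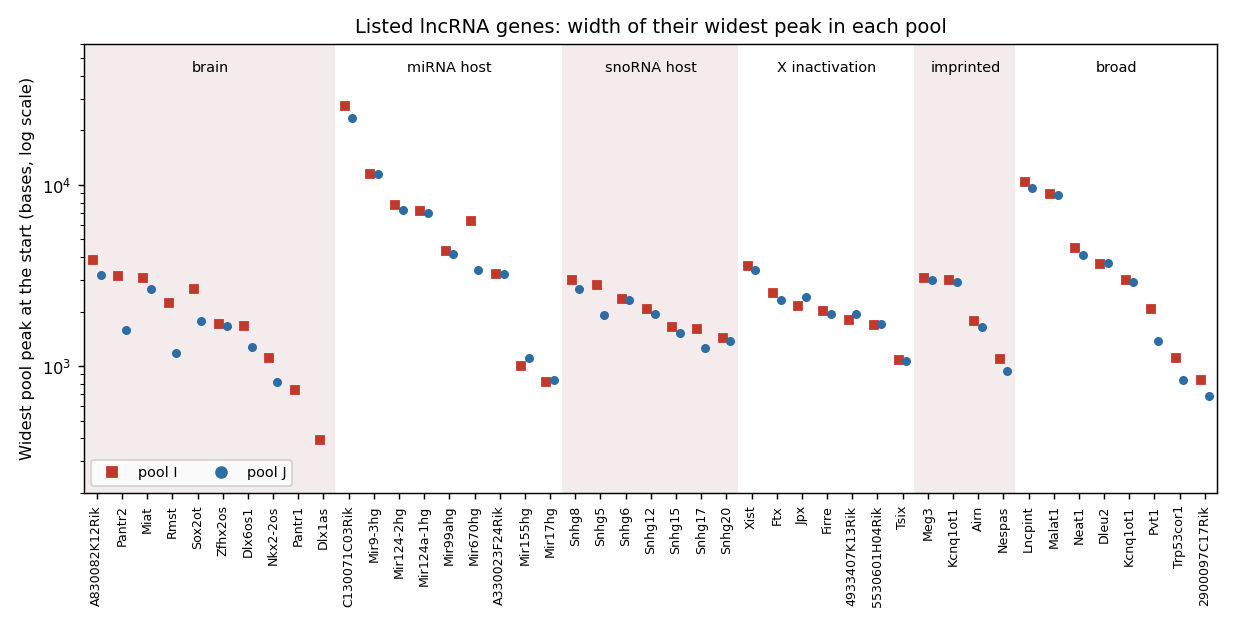
Width in bases (log scale) of the pool I peak (squares) and the pool J peak (circles) at the widest member peak of each listed lncRNA gene, by list. Hosts of miRNAs span the widest range, up to 27204 bases in pool I and 23485 in pool J at C130071C03Rik, and the snoRNA hosts lie close together, while Pantr1 and Dlx1as have no pool J symbol.

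Named genes were a small part of the members. Provisional Gm symbols made up 508 members and Rik symbols 251, and 121 had another gene symbol. The 121 had medians of 1351 bases and 8.96, against 897 bases and 6.75 for Rik and 734 bases and 5.26 for Gm symbols. Pool J met 86.8% of the 121, 81.7% of Rik and 72.8% of Gm members. Counts over the lists do not describe the other members.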

How the data were processed

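The authors deposited 4 lists of H3K4me3 peaks on mm10, per the text files supplied with the libraries: replicated peaks (both pools), pseudoreplicated peaks of the pooled reads, and pseudoreplicated peaks of pool I and of pool J alone. Each deposited peak has a display score (not used), an enrichment that is a ratio, taken as fold over a control, a summit, and −log10 p and q values (p not used). What aligned the reads and called the peaks, with which settings and depth, is not given in the sources used here. Coordinates are counted from 1. Enrichment was compared within a list.

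Starts came from GENCODE M21 (chromosome M left out), composition from GRCm38.p6, and hairpins and gene types from RefSeq. A pool value is that of the widest pool peak sharing at least 1 base. The members and lists were chosen with earlier results of these data known, so no list is independent evidence. Named genes were the 10 widest, 10 most enriched and 5 most isolated members, the listed genes, the 5 highest and lowest width ratios, the 5 most enriched in neither pool and the 20 most enriched on the X, of which some are given. Shares have 95% Wilson intervals, which cover counting error only, as depth was unknown. No p-value was computed, since each pool had 1 list. The overlap and composition steps were tested on simulated data. Python 3.11.15, numpy 2.4.6, pandas 2.3.3, scipy 1.17.1 and pysam 0.24.0 were used. Windows, the q threshold, the exclusion rule and the list were varied.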

Additional observations from a re-analysis of the deposited data

How the results depend on the processing

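The number of members lay between 744 and 1013 under the settings tried, apart from 582 at a −log10 q of at least 10. At that threshold the median width was 1238 bases, enrichment 10.3 and CpG ratio 0.536, pool I met 99.8% and pool J 99.0% of members, and 6.12% of lincRNA, 3.79% of antisense and 13.3% of processed_transcript genes had one. Windows of 500 bases gave 937 bases, 6.66, 80.7% met by pool J and 7.96% of lincRNA genes, and windows of 2500 bases gave 761 bases and 10.1%. With the pool I list in place of the replicated one, the values were 962 bases, 7.03 and 81.3% met by pool J. With the pool J list they were 972 bases, 7.48, 95.6% met by pool I, a CpG ratio of 0.491, 7.48% of lincRNA genes and 5.04% of antisense genes. The list of the pooled reads gave 822.5 bases and exclusion by protein-coding transcripts alone 861.5 bases. A summit inside the window gave 8.20% of lincRNA genes. Exclusion by RefSeq mRNA starts as well, chosen after seeing the data, gave 820.5 bases and 8.08% of lincRNA genes. The cause of these shifts was not tested, except that a higher q threshold keeps fewer peaks by construction.

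No paired analysis was possible because each pool had 1 list and no test was run. Leaving out a technical replicate was not possible, since both libraries of a pool share a list. Depth was unknown, so a gene without a peak is not shown to lack the mark.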
